A study of Mus musculus with 2 samples.

Results

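MPP4 gate cells with Dntt are called lymphoid-primed multipotent progenitors by their surface tags and 1 transcript. They are cells of the bone marrow LSK fraction (sorted for Sca-1 and c-Kit and against lineage markers). Each had a CD135 tag at or above a set threshold, a CD150 tag below another and at least 1 UMI of Dntt. The members were chosen by these 3 measured values, so the levels of Dntt, CD135 and CD150 in them are a description of the choice. A cell was a member when its centred log ratio (CLR, the natural log of 1 plus the tag's UMIs minus the cell's mean over all antibody tags) was at least -0.43 for CD135 and below about 1.6 for CD150. Members carried UMIs of both tags. Median CD135 UMIs per cell were 7 in chelator and 8 in control members, and median CD150 UMIs were 8 and 7. There were 675 members among 3998 filtered cells of the chelator pool and 707 among 3969 of the control pool, 1382 of 7967 in all. They are called Dntt-positive cells below, and the remaining 605 chelator and 795 control cells of the same gate are called Dntt-negative cells, which means only that no Dntt UMI was counted in them.

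The mice of the chelator group received deferoxamine, an iron chelator, at 50 mg/kg and those of the control group the vehicle HBSS, daily for 7 days in courses that began 4 weeks apart. Courses started at an age of about 6 months and went on for 13 months, and the stated aim was to examine long-term chelation as stem cells age. Marrow LSK cells of each group formed 1 pool, stained with its own hashtag, and 1 single-cell 5' run took both together, with an RNA and an antibody tag library (CITE-seq). Strain, sex and the number of mice per pool were not given in the sources used here. With 1 pool per condition nothing could be tested across animals, so every interval below is a 95% interval for counting error alone and no p-value is given.

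Dntt encodes terminal deoxynucleotidyl transferase (TdT), which adds nucleotides without a template to the joints of rearranging antigen receptor genes. It is among the first lymphoid genes to be transcribed in multipotent progenitors, well before the recombinases Rag1 and Rag2 and the interleukin 7 receptor are abundant. CD135 is the product of Flt3, a cytokine receptor that marks the progenitors that lean towards lymphoid fates, and CD150 (Slamf1) marks stem cells and megakaryocyte-prone progenitors. The Dntt core promoter is a classical example of one with an initiator element and no TATA box.

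Promoter windows of Dntt and of 5 genes whose RNA went with it are shown because these genes were higher together in the cells described here. Each window runs from 150 bases before to 10 bases after the annotated start in the RefSeq annotation of GRCm38.p6, 5′ to 3′, and all 6 genes looked up were found in that table. Capitals mark the E-box CANNTG, the Ikaros core TGGGAA and the Ets-type core AGGAAG, searched on both strands, so that CTTCCT is AGGAAG read on the other strand.
Dntt, chr19:41029125-41029284, plus strand: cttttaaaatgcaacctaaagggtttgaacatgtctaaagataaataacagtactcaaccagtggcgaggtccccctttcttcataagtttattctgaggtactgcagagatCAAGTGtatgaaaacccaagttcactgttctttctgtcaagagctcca
Flt3, chr5:147400480-147400639, minus strand: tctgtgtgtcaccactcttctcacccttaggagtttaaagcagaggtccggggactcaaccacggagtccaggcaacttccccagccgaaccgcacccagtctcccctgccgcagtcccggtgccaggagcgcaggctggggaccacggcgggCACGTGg
Il12a, chr3:68690494-68690653, plus strand: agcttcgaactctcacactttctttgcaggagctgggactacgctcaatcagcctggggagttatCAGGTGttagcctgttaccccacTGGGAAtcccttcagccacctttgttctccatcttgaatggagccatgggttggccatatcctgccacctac
Wfdc17, chr11:83703906-83704065, plus strand: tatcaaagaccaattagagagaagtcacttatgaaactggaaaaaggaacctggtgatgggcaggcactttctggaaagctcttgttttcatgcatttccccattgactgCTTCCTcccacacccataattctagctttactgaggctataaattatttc
Rag2, chr2:101624562-101624721, plus strand: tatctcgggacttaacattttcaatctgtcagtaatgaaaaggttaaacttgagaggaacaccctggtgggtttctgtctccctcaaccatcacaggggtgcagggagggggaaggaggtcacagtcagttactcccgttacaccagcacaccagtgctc
Il7r, chr15:9529867-9530026, minus strand: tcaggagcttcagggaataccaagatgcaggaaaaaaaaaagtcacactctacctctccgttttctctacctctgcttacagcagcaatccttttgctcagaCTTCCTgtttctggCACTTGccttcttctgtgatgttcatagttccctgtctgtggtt
Il12a has 2 annotated starts, of which the first listed is shown. The windows of Dntt, Flt3, Il12a and Il7r each held 1 E-box, and none of the matches overlapped another. TGGGAA was found in the window of Il12a alone, AGGAAG in those of Wfdc17 and Il7r, and Rag2 held none of the motifs. Over all 32851 promoter windows of this length, 50.1% held CANNTG, 14.01% TGGGAA and 21.0% AGGAAG, beside 4, 1 and 2 of these 6.

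The Dntt-positive cells were deeper than their neighbours in the gate. Their median was 18743 gene UMIs per cell in the chelator pool and 16786 in the control pool, against 13461 in chelator and 12937 in control Dntt-negative cells. Mitochondrial UMIs had medians of 1.85% in chelator and 1.89% in control Dntt-positive cells. No barcode occurred in both matrices, and in all 675 chelator and 707 control members the pool's own hashtag outnumbered the other. No doublet caller was run. Members with clear RNA of both sexes numbered 2 in each pool, and 12 chelator and 13 control members had more than 40000 UMIs.

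The pools differed in the sex of their cells. Among Dntt-positive cells with a sex call, 19.6% of chelator cells (16.5 to 22.9%; 122 of 623) and 45.2% of control cells (41.3 to 49.2%; 290 of 641) expressed Xist without Y-linked RNA. The others expressed Y-linked genes. Chelator-to-control values are therefore also given within Xist cells and within Y cells, since in the pooled values the sex make-up and the treatment cannot be told apart.

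Dntt UMIs were spread widely over the members. The median was 7 UMIs per chelator cell and 6 per control cell, with quartiles of 2 and 19 in the chelator pool and 2 and 18 in the control pool. The highest cell held 167 UMIs in the chelator pool and 164 in the control pool, and the richest 10% of cells held 46.2% of chelator and 44.4% of control Dntt UMIs. At the low end, 121 chelator members (17.9%) and 137 control members (19.4%) rested on exactly 1 UMI. For comparison, Dntt was detected in 3.11% (2.27 to 4.16%) of chelator and 2.07% (1.35 to 3.01%) of control cells that were CD135-low and CD150-high, the stem-cell side of the tags, at median depths of 13534 and 13009 UMIs. What this share owes to free RNA, tag noise or expression was not tested. Such cells with Dntt held up to 34 Dntt UMIs in the chelator and 53 in the control pool. Flt3 had a UMI in 61.4% of the chelator and 38.5% of the control ones, against 9.48% and 6.99% of all chelator and control CD135-low CD150-high cells.

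Values on either side of the CD135 threshold were as follows. The 118 chelator and 60 control members within 0.25 above it had Flt3 RNA at 264 CPM in the chelator and 241 CPM in the control pool (CPM, UMIs of the gene per 1000000 gene UMIs, summed over cells). Just below it, 92 chelator and 60 control cells with Dntt had Flt3 at 260 CPM in the chelator and 200 CPM in the control pool. Only 1 cell with Dntt lay just above the CD150 threshold, in the chelator pool. In all, 942 chelator and 872 control cells had Dntt, of which 213 chelator and 129 control cells were CD135-low and CD150-low.

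The markers given with the label of lymphoid-primed progenitors are described next. They came with the label, Dntt drew the split and Flt3 encodes the CD135 protein. Their levels are therefore no independent check of the label. Flt3 RNA was at 365 CPM in chelator and 399 CPM in control Dntt-positive cells, against 148 CPM in chelator and 150 CPM in control Dntt-negative cells. Satb1, a chromatin organiser of lymphoid progenitors, was at 187 CPM in chelator and 202 CPM in control Dntt-positive cells, against 63.8 CPM and 61.3 CPM in chelator and control Dntt-negative cells. For each of these genes, the values of both pools in Dntt-positive cells stood above both in Dntt-negative cells. Il12a, the p35 subunit of interleukin 12, was at 140 CPM in Dntt-positive cells of each pool, against 38.7 CPM in chelator and 37.1 CPM in control Dntt-negative cells. Wfdc17, a small secreted whey acidic protein, was at 117 CPM in chelator and 122 CPM in control Dntt-positive cells, against 53.9 CPM in chelator and 48.2 CPM in control Dntt-negative cells. None of the 4 was confined to members: Il12a had a UMI in 29.6% of chelator and 23.5% of control CD135-low CD150-high cells, and Wfdc17 in 6.01% of chelator and 3.65% of control ones.

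The members' shape in RNA was read against the Dntt-negative cells of the same gate and pool. Of 10613 genes with at least 200 UMIs over the gate, Dntt left out, 1.75% were past 1.5-fold higher in Dntt-positive cells in both pools and 3.8% were past 1.5-fold lower in both. This contrast is the one that Dntt itself drew, and the Dntt-negative cells are a mixture, so nothing is read from these shares. The median log2 ratio over all these genes was -0.04 in the chelator and -0.03 in the control pool.

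Of the lymphoid priming list, 14 of 30 measured genes were past 1.5-fold higher in both pools, none was past it lower, and 26 were above 0 in both. The share of all genes above 0 in both pools was not counted, so only the first of these counts has a background above. Its median log2 ratio was 0.57 in the chelator and 0.69 in the control pool, with Dntt and Flt3 left out. Il7r, the interleukin 7 receptor chain, was at 21.0 CPM in Dntt-positive cells of each pool, against 0.42 CPM in control Dntt-negative cells and 0 of 9478345 gene UMIs in chelator ones. Taking 3 counts as the floor for those chelator cells, Il7r was at least 66.4-fold higher in chelator Dntt-positive cells. This bound leaves out counting error, with which the lower limit of the log2 ratio was 5.74. Notch1, the receptor that directs T-cell fate, was at 48.8 CPM in chelator and 49.3 CPM in control Dntt-positive cells, against 17.5 CPM and 16.9 CPM in chelator and control Dntt-negative cells. Ccr9 and Ccr7, chemokine receptors used on the way to the thymus, had log2 ratios of 1.40 (0.81 to 2.03) and 2.31 (1.54 to 3.16) in the chelator pool and 2.10 (1.57 to 2.67) and 2.92 (2.09 to 3.88) in the control pool. Lck, a T-cell receptor kinase outside the lymphoid priming list, was 1.78 (1.49 to 2.08) in the chelator and 1.90 (1.63 to 2.17) in the control pool. The list of T, NK and innate lymphoid cell genes did not go up as a whole. Of its 6 measured genes, 1 was past 1.5-fold higher in both pools and 2 were past it lower. Its median was -0.41 in the chelator and -0.20 in the control pool. The 3 measured genes of the Notch target list had medians of -0.60 in the chelator and -0.25 in the control pool.

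Among transcription factors other than Satb1, Mef2c had a log2 ratio of 0.61 (0.54 to 0.68) in the chelator and 0.77 (0.70 to 0.84) in the control pool, and Tcf4, the E2-2 factor of plasmacytoid dendritic cells, 0.70 (0.59 to 0.81) in the chelator and 0.80 (0.70 to 0.90) in the control pool. Ikzf1, which encodes Ikaros, was at 240 CPM in chelator and 252 CPM in control Dntt-positive cells, against 162 CPM and 163 CPM in chelator and control Dntt-negative cells. Ikzf2, which encodes Helios, went the other way, at -0.55 (-0.69 to -0.42) in the chelator and -0.53 (-0.66 to -0.41) in the control pool. Irf8 was near equal, at -0.02 (-0.16 to 0.12) in the chelator and 0.07 (-0.06 to 0.20) in the control pool. Ltb, lymphotoxin beta, was lower in Dntt-positive cells despite its place on the list, at 60.5 CPM in chelator and 78.4 CPM in control cells against 105 CPM and 114 CPM in chelator and control Dntt-negative cells.

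Among recombination genes, Rag2 was at 13.2 CPM in chelator and 13.7 CPM in control Dntt-positive cells, against 1.69 CPM and 1.17 CPM in chelator and control Dntt-negative cells. Rag1, its partner, summed to 11 UMIs in chelator and 19 in control Dntt-positive cells. It was under the 200 UMIs set for the counts of genes, and no ratio is given for it. A UMI of Rag2 was seen in 15.7% of chelator and 14.7% of control members, and one of Rag1 in 1.48% of chelator and 1.556% of control members. Of the recombination and end joining list, 3 of 10 measured genes were past 1.5-fold higher in both pools: Rag2, Xrcc6, which encodes the Ku70 end-binding protein, and Poll, a gap-filling polymerase. Its other measured genes had log2 ratios between -0.18 and 0.34 in both pools. Ighm, the heavy chain constant region, which is transcribed in germline form before rearrangement, was at 163 CPM in chelator and 158 CPM in control Dntt-positive cells, against 40.3 CPM and 34.6 CPM in chelator and control Dntt-negative cells.

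Several defining genes of committed B and T cells had few or no UMIs in Dntt-positive cells, and others were well detected. Cd22 and Cd3e had no UMI in the 1382 members, Pax5 had 0 in the chelator and 4 in the control pool, and Ptcra and Dtx1 had none. Ebf1, the factor that opens the B-cell programme, had 45 UMIs in chelator and 60 in control members and none in Dntt-negative cells of either pool. On the floor of 3 counts this was at least 10.4-fold higher in the chelator and at least 18.2-fold higher in the control pool. Counting error is left out of these bounds. Cd79b, a signalling chain of the B-cell receptor, had 569 UMIs (41.6 CPM) in chelator and 536 (40.7 CPM) in control members, with log2 ratios over Dntt-negative cells of 0.13 (-0.06 to 0.32) in the chelator and 0.18 (-0.01 to 0.36) in the control pool.

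The genes that stood highest by ratio were mostly ones with a small share of expressing cells. After Il7r, Cmah, a sialic acid hydroxylase, had log2 ratios of 5.41 (4.28 to 6.87) in the chelator and 5.66 (4.6 to 6.98) in the control pool. Cox6a2, a cytochrome c oxidase subunit, was at 50.2 CPM in chelator and 38.6 CPM in control Dntt-positive cells, against 0.95 CPM and 1.5 CPM in chelator and control Dntt-negative cells. Arpp21, a regulator of calmodulin signalling, was at 44.7 CPM and 44.2 CPM in chelator and control Dntt-positive cells, against 2.22 CPM and 2.08 CPM in Dntt-negative ones. Blnk, the B-cell linker adaptor, reached 3.77 (2.61 to 5.25) in the chelator and 2.87 (2.06 to 3.78) in the control pool. Rasal1, Slc18a1, Tmem108, Rag2, Fgf13, Tlr7, Ptger2, Kcng1 and Cnn3 completed the highest 14, with log2 ratios between 2.69 and 5.22.

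**Figure D1:**
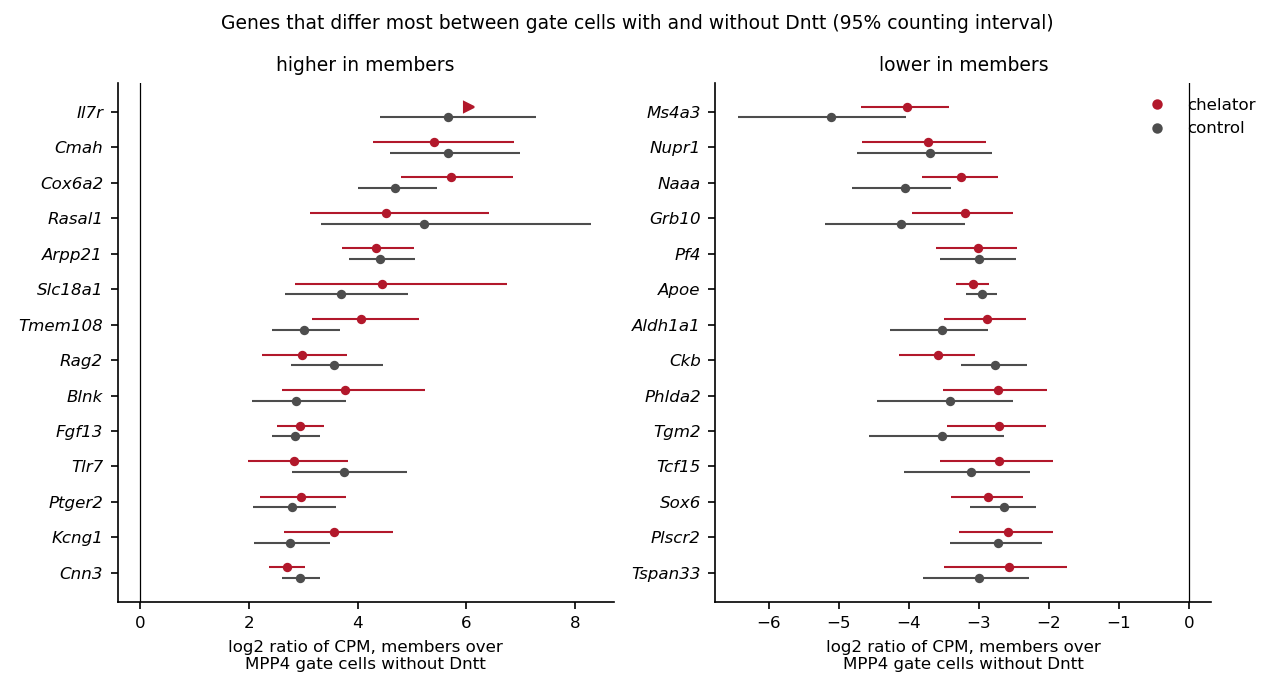
Log2 ratio of CPM (x axis), Dntt-positive over Dntt-negative MPP4 gate cells, for the 14 genes highest (left) and the 14 lowest (right) by the smaller of the ratios of the pools. Points are the chelator (red) and control (grey) pool, bars 95% counting intervals, and the triangle is the lower bound of 66.4-fold for Il7r in the chelator pool. Each gene lies on the same side of 0 in both pools, as the choice of genes requires.

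On the other side, by summed level, stood genes of stem cells, megakaryocytes, granulocytes and antigen-presenting cells. Some of these sums rested on few Dntt-negative cells, and the shares with a UMI are given below for Elane, Ms4a3 and Batf3. Of the stem cell list, 12 of 17 measured genes were past 1.5-fold lower in both pools and none was past it higher, with medians of -1.04 in the chelator and -0.82 in the control pool. Hlf, a stem cell transcription factor, was at 173 CPM in chelator and 182 CPM in control Dntt-positive cells, against 356 CPM and 333 CPM in chelator and control Dntt-negative cells. Hoxa9 was the exception on that list, at 0.29 (0.18 to 0.40) in the chelator and 0.32 (0.22 to 0.43) in the control pool. The summed list stood at 1260.4 CPM in chelator and 1417 CPM in control Dntt-positive cells, at 2177 CPM and 2243 CPM in chelator and control Dntt-negative cells, and at 5177 CPM and 5338 CPM in chelator and control CD135-low CD150-high cells.

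Of the megakaryocyte list, 6 of 9 genes were past 1.5-fold lower in both pools, and Pf4, platelet factor 4, was at 2.27 CPM in chelator and 2.58 CPM in control Dntt-positive cells, against 18.3 CPM and 20.6 CPM in Dntt-negative ones. Of the erythroid list 7 of 12 were past it lower. Apoe, Aldh1a1, Nupr1, Grb10, Tgm2 and Tcf15 were among the lowest 14 genes, and their CPM were higher still in the CD135-low CD150-high cells (Nupr1 at 227 CPM in the chelator and 233 CPM in the control pool).

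Myeloid genes were of 2 kinds. Elane, neutrophil elastase, was at 2.34 CPM in chelator and 4.71 CPM in control Dntt-positive cells, against 263 CPM and 120 CPM in Dntt-negative ones, where 6.61% of chelator and 4.91% of control cells held its UMIs. Ms4a3, a granulocyte-monocyte progenitor gene, had log2 ratios of -4.02 (-4.68 to -3.43) in the chelator and -5.11 (-6.44 to -4.04) in the control pool. It had a UMI in 8.43% of chelator and 7.92% of control Dntt-negative cells. Mpo, myeloperoxidase, was instead detected in more members than neighbours: in 69.8% (66.2 to 73.2%) of chelator and 66.6% (63.0 to 70.1%) of control Dntt-positive cells, against 45.5% (41.4 to 49.5%) and 43.4% (39.9 to 46.9%) of chelator and control Dntt-negative cells. With every cell thinned to 5000 UMIs, which left out 5 chelator and 16 control Dntt-positive and 35 chelator and 48 control Dntt-negative cells, these shares were 52.2% and 49.6% in chelator and control Dntt-positive cells, against 32.8% and 35.7% in chelator and control Dntt-negative cells. Yet its summed level was lower, at 421 CPM in chelator and 496 CPM in control Dntt-positive cells against 838 CPM and 682 CPM in chelator and control Dntt-negative cells. Mpo RNA was thus widespread and low in members, and was concentrated in fewer cells among their neighbours. Plac8 and Clec12a, also on the granulocyte-monocyte list, were the 2 of 13 that were past 1.5-fold higher in both pools, and Clec12a was at 63.8 CPM in chelator and 59.7 CPM in control Dntt-positive cells, against 29.5 CPM and 17.2 CPM in Dntt-negative ones.

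Summed RNA of MHC class II antigen presentation genes was lower in members, while the class II protein tag, I.A_I.E, was higher in them by 0.30 CLR units in the chelator and 0.26 in the control pool. Cd74, the invariant chain, was at 156 CPM in chelator and 175 CPM in control Dntt-positive cells, against 775 CPM and 710 CPM in Dntt-negative ones. H2-Aa, H2-Ab1 and H2-Eb1 had log2 ratios between -1.92 and -1.14 over the pools. These sums do not show how many of the Dntt-negative cells carried the class II RNA. Batf3, a factor of conventional dendritic cells, had 1 UMI in the members of each pool. It was at 0.07 CPM in chelator and 0.08 CPM in control Dntt-positive cells, against 6.54 CPM and 9.33 CPM in Dntt-negative ones. Only 1.82% of chelator and 1.89% of control Dntt-negative cells held a Batf3 UMI. With 176 UMIs over the gate, Batf3 was under the minimum set for the counts of genes. Class I genes differed little, with H2-K1 at -0.17 (-0.20 to -0.14) in the chelator and -0.19 (-0.22 to -0.16) in the control pool.

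Cycle genes split by phase. The G2 and M phase list had medians of 0.52 in the chelator and 0.51 in the control pool, beside -0.04 and -0.03 over all genes. All 24 of its genes were above 0 in both pools, although only 2 were past 1.5-fold in both. The share of all genes above 0 in both pools was not counted. The 24 S phase genes had medians of 0.20 in the chelator and 0.05 in the control pool. Mki67, a marker of cycling cells, had a UMI in 50.7% of chelator and 44.3% of control Dntt-positive cells, against 34.0% and 30.7% of chelator and control Dntt-negative cells. After thinning these shares were 39.9% and 35.9% in chelator and control Dntt-positive cells, against 26.7% and 23.7% in chelator and control Dntt-negative cells.

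Surface tags were available for 117 proteins and 9 isotype controls. CD371, the product of Clec12a, was higher in Dntt-positive cells by 0.85 CLR units in the chelator and 0.87 in the control pool. Its median was 72 UMIs per cell in chelator and 49 in control Dntt-positive cells, against 26 and 19 in chelator and control Dntt-negative cells. CD48, a signalling lymphocyte activation family member, was higher by 0.84 in the chelator and 0.82 in the control pool. CD11a, CD86 and CD31 followed, with differences between 0.37 and 0.46. The isotype tags differed by -0.07 to 0.00 between the same groups of cells.

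The lowest tag was CD55, a complement regulator, with a difference of -1.01 in the chelator and -0.997 in the control pool. Its median was 5 UMIs in chelator and 4 in control Dntt-positive cells, against 16 and 14 in chelator and control Dntt-negative cells and 96 and 87 in chelator and control CD135-low CD150-high cells. CD49b, CD9, CD41, CD61 and CD49f, integrins and a tetraspanin, were lower by between 0.31 and 0.59. Of these 5, CD49b averaged 2.07 CLR in chelator and 2.11 in control Dntt-positive cells, above the 1.42 and 1.20 of chelator and control CD135-low CD150-high cells, whereas the other 4 were highest in the CD135-low CD150-high cells. RNA and tag had the same sign in both pools for 10 of these 11 proteins. Clec12a had log2 ratios of 1.11 (0.915 to 1.311) in the chelator and 1.79 (1.57 to 2.02) in the control pool, and Cd55 -2.54 (-3.21 to -1.92) and -2.10 (-2.71 to -1.53) in the chelator and control pools. The exception was Cd86, whose RNA intervals held 0 in both pools.

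**Figure D2:**
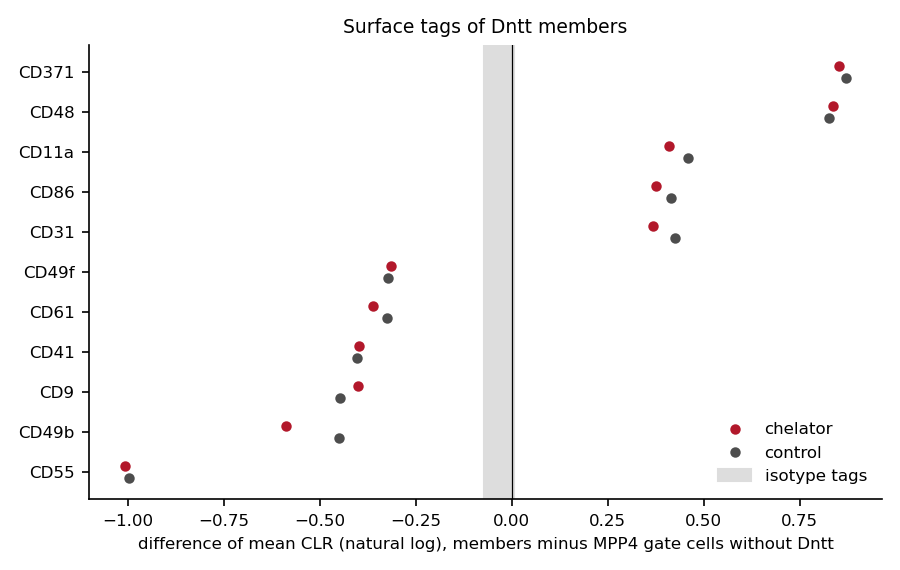
Difference of mean CLR (x axis, natural log units), Dntt-positive minus Dntt-negative MPP4 gate cells, for 5 of the highest surface tags and the 6 lowest, CD135 and CD150 left out. Points are the chelator (red) and control (grey) pool and the shaded band is the range of the 9 isotype tags, -0.07 to 0.00. All 11 tags lie outside that band.

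Within the members, expression of 3 of the 4 markers was graded with the number of Dntt UMIs. In cells with 1, 2 to 4, 5 to 19 and at least 20 Dntt UMIs, Flt3 stood at 277, 301, 371 and 453 CPM in the chelator pool and at 280, 346, 416 and 486 CPM in the control pool. Satb1 stood at 115, 146, 191 and 250 CPM in the chelator and at 120, 158, 198 and 288 CPM in the control pool. Il12a stood at 59.3, 80.6, 139 and 227 CPM in the chelator and at 65.0, 87.3, 136 and 227 CPM in the control pool. Each of the 3 was higher at every step in both pools, and members with 1 Dntt UMI stood above the Dntt-negative cells for these genes. Wfdc17, the remaining marker, was not graded in this way, at 84.3, 80.0, 171 and 101 CPM in the chelator and 90.3, 109, 147 and 119 CPM in the control pool.

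Il7r and Rag2 were far higher in the cells with most Dntt than in the others. Il7r stood at 0, 0, 4.98 and 65.7 CPM over the same steps in the chelator pool and at 0.45, 4.77, 6.04 and 62.5 CPM in the control pool. Rag2 stood at 2.94, 1.58, 8.83 and 32.5 CPM in the chelator and at 2.71, 1.83, 8.05 and 35.6 CPM in the control pool. Mpo was lowest where Dntt was highest, at 287 CPM in the chelator and 339 CPM in the control pool. The summed stem cell list was lower at every step, down to 738 CPM in chelator and 893 CPM in control cells with at least 20 Dntt UMIs. Median depth went with the steps, at 15929 gene UMIs for 1 Dntt UMI and 23554 for at least 20 in the chelator pool, and 13781 and 21430 in the control pool, and its part in the counts of Dntt was not tested.

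**Figure D3:**
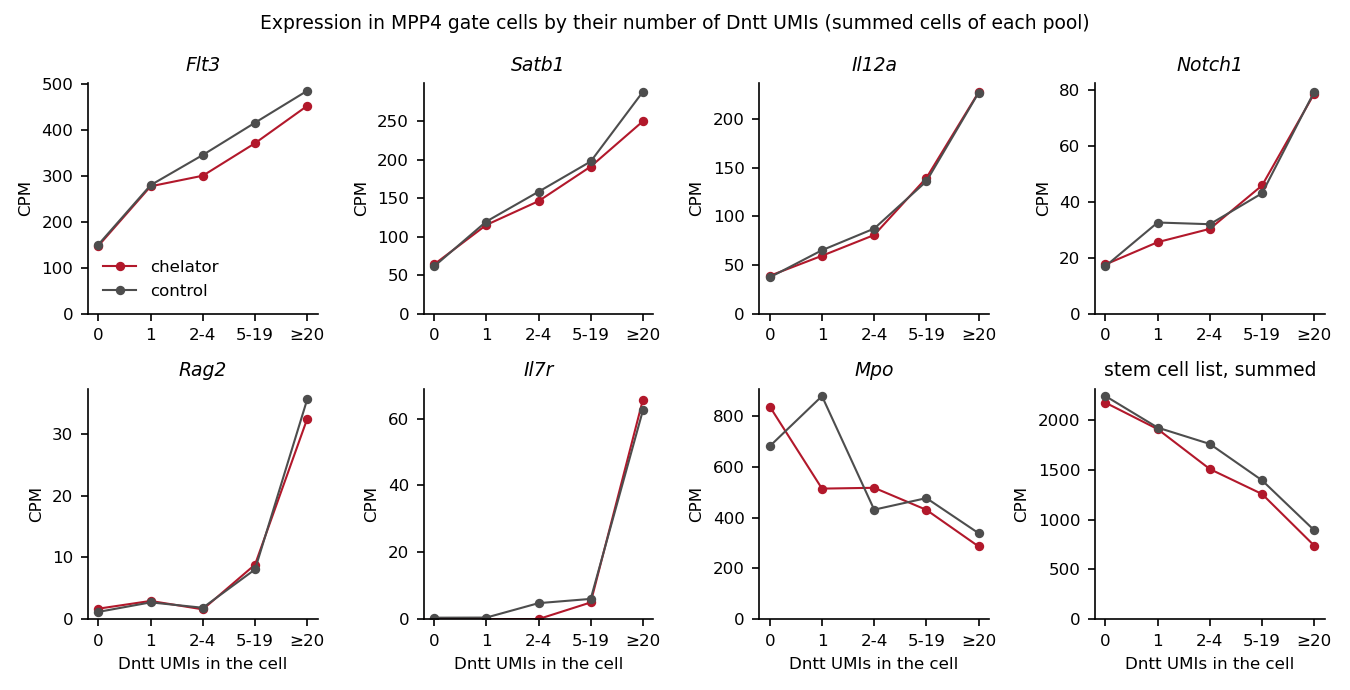
CPM (y axis) of 7 genes and of the summed stem cell list in MPP4 gate cells grouped by their number of Dntt UMIs (x axis, 0 being the Dntt-negative cells), summed over the cells of the chelator (red) and control (grey) pool. Flt3, Satb1 and Il12a climb at every step, whereas Il7r and Rag2 are low up to 19 Dntt UMIs and reach 65.7 and 32.5 CPM in the chelator pool at 20 or more.

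Most Ebf1 and Ly6d RNA lay in a small group of members. Members with an Il7r UMI, set apart after their values had been seen, numbered 67 of 675 in the chelator pool (9.93%, 7.78 to 12.4%) and 81 of 707 in the control pool (11.5%, 9.20 to 14.04%). Among Dntt-negative cells the gene was seen in 0 of 605 chelator cells, which allows a share of cells with a UMI of up to 0.496% (3 counts of 605), and in 2 of 795 control cells. The Il7r cells had a median of 47 Dntt UMIs in the chelator and 36 in the control pool, against 5 in members of each pool without Il7r. The CD127 tag, the protein of Il7r, averaged 0.55 CLR (SD over cells 0.59) in chelator and 0.43 (SD 0.54) in control Il7r cells, against -0.13 (SD 0.45) and -0.12 (SD 0.47) in chelator and control members without it. The RNA of Il7r chose these cells, so only the tag is a separate reading.

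These cells held 35 of 45 chelator and 55 of 60 control Ebf1 UMIs, and 312 of 370 chelator and 160 of 161 control Ly6d UMIs, but only 76 of 569 chelator and 82 of 536 control Cd79b UMIs. In these Il7r cells Ebf1 was at 21.7 CPM in the chelator and 31.9 CPM in the control pool, against 0.83 CPM and 0.44 CPM in chelator and control members without Il7r. Rag2 was at 46.4 CPM in chelator and 56.3 CPM in control Il7r cells, against 8.80 CPM and 7.34 CPM in chelator and control members without it. Cox6a2 was at 253 CPM and 197 CPM in chelator and control Il7r cells, against 22.99 CPM and 14.8 CPM in members without Il7r. Kit, the stem cell factor receptor, was lower, at 107 CPM in chelator and 115 CPM in control Il7r cells against 225 CPM and 229 CPM in chelator and control members without it. Ly6a, which encodes Sca-1, had log2 ratios of -1.15 (-1.48 to -0.83) in the chelator and -1.19 (-1.52 to -0.88) in the control pool. As background, common lymphoid progenitors are known by Il7r with low Kit and low Sca-1.

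The number of members was set between the pools next. Dntt-positive cells made up 52.7% (50.0 to 55.5%) of chelator and 47.1% (44.5 to 49.6%) of control MPP4 gate cells, a difference of 5.66 points (1.89 to 9.43). The gate itself was smaller in the chelator pool, at 32.0% (30.6 to 33.5%) of chelator and 37.8% (36.3 to 39.4%) of control cells. As a share of all cells, members came to 16.9% (15.7 to 18.1%) in the chelator and 17.8% (16.6 to 19.04%) in the control pool, a difference of -0.93 points (-2.61 to 0.75). That interval held 0, and the sign of the difference was not the same under a moved CD135 threshold. The median CD135 CLR was 0.119 lower in the chelator pool over all cells under 1 shared threshold, and with that threshold moved by the difference the value was 0.27 points. Of all cells whatever their tags, 23.6% in the chelator and 22.0% in the control pool had Dntt, a difference of 1.59 points (-0.27 to 3.45). With cells thinned to 5000 UMIs, which left out 40 chelator and 64 control gate cells, the share of the gate with Dntt was 40.8% in the chelator and 36.9% in the control pool.

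The difference in the gate went with the sex of the cells. Among Y cells, 56.5% (53.2 to 59.8%) of chelator and 46.6% (43.0 to 50.3%) of control gate cells had Dntt, a difference of 9.93 points (5.0 to 14.8). Among Xist cells the shares were 48.0% (41.7 to 54.4%) in the chelator and 50.5% (46.4 to 54.7%) in the control pool, a difference of -2.49 points (-10.0 to 5.09). Of all Xist cells, members were 13.6% in the chelator and 20.5% in the control pool, lower in the chelator pool by 6.86 points with an interval of -9.96 to -3.68. Of all Y cells they were 19.7% in the chelator and 18.0% in the control pool, a difference of 1.73 points (-0.62 to 4.05).

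**Figure D4:**
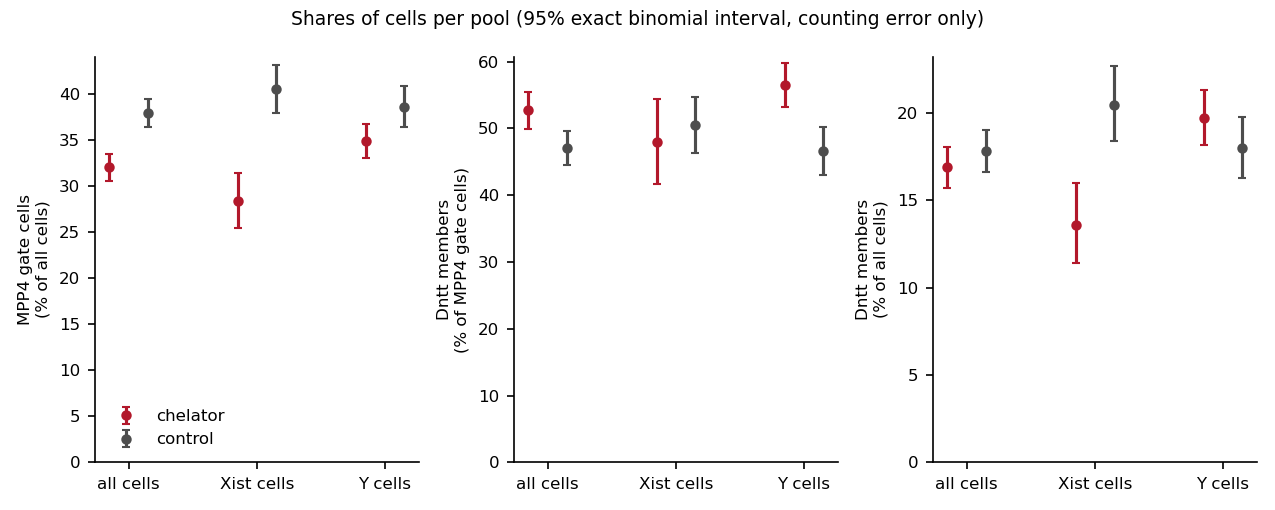
Percent of cells (y axis, from 0) in the MPP4 gate, with Dntt within the gate and with Dntt among all cells, for all cells, Xist cells and Y cells, in the chelator (red) and control (grey) pool; bars are exact Clopper-Pearson 95% intervals. In the middle panel the chelator point is above the control point in Y cells (56.5% against 46.6%) and below it in Xist cells (48.0% against 50.5%).

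Between the pools the RNA of the members was close. Of 9497 genes with at least 200 UMIs over the members, 0.105% were past 1.5-fold higher in chelator than in control members and 0.337% were past 1.5-fold lower. At a lower limit of 0.32 on the log2 scale, called the small-fold limit below, these shares were 1.18% and 1.94%. The median over all genes was -0.01 on the log2 scale. Dntt itself had a log2 ratio of 0.08 (0.04 to 0.12), from 804 CPM in chelator and 760 CPM in control members, with 0.30 in Xist cells and 0.07 in Y cells. Flt3 was at -0.13 (-0.18 to -0.07), Satb1 at -0.12, Il12a at 0.00, Rag2 at -0.05 (-0.36 to 0.25), and Il7r at 0.00 (-0.24 to 0.25).

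Of the 30 lymphoid priming genes, 1 was past the small-fold limit higher and 2 were past it lower, and the median was -0.05. The gene past it higher was Ly6d, an early B-lineage antigen, at 27.1 CPM in chelator and 12.2 CPM in control members. Its UMIs came from 19 cells in each pool, and 1 chelator cell held 131 of the 370 and 1 control cell 53 of the 161. Within Xist cells its log2 ratio was -1.55 and within Y cells 1.75. The 2 past it lower were Ccr9, at 8.34 CPM in chelator and 12.5 CPM in control members, and Ltb, at 60.5 CPM in chelator and 78.4 CPM in control members. Ccr9 was at -1.56 in Xist cells and -0.74 in Y cells, whereas Ltb was at 0.25 in Xist cells and -0.64 in Y cells.

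Iron genes showed little difference between the pools. Of the iron uptake, storage and export list, 0 of 16 genes were past the small-fold limit either way and the median was -0.02. Tfrc, the transferrin receptor, had 218 UMIs in chelator and 208 in control members and a log2 ratio of 0.01 (-0.27 to 0.30), and Fth1, ferritin heavy chain, was at 0.06. The heme synthesis and iron-sulfur assembly lists, with 9 and 21 genes, had none past the small-fold limit and medians of -0.02 and 0.00. The CD71 tag, the transferrin receptor protein, was lower in chelator members by 0.23 CLR units, with a median of 3 UMIs per chelator and 4 per control member, and within Xist cells and Y cells the differences were -0.23 and -0.13. The isotype tags ranged from -0.09 to 0.16 in the same comparison. In the Dntt-negative cells the CD71 tag was lower in the chelator pool by 0.22 as well.

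Replication genes stood slightly higher in chelator members. All 24 genes of the S phase list had a log2 ratio above 0, with a median of 0.14, whereas 46.0% of all 9497 genes were above 0. Mcm3, a subunit of the replicative helicase, was at 245 CPM in chelator and 214 CPM in control members, a log2 ratio of 0.19 (0.12 to 0.27), and Cdc6, which loads that helicase, was the only gene of the list past the small-fold limit. The median was 0.13 within Xist cells and 0.17 within Y cells, and -0.03 in the Dntt-negative cells of the gate. The summed list was at 3249 CPM in chelator and 2946 CPM in control members. By Dntt level, the ratio of the sums was 0.06 (0.02 to 0.11) in members with 1 Dntt UMI, 0.13 (0.09 to 0.17) with 2 to 4, 0.15 (0.12 to 0.19) with 5 to 19 and 0.18 (0.15 to 0.22) with at least 20. Median depth was also higher in chelator members, and its part in this difference was not tested. The G2 and M phase list had a median of 0.05, at 0.13 in Xist cells and -0.11 in Y cells. By Dntt level its summed ratio was 0.08 with 1 Dntt UMI, 0.44 with 2 to 4, -0.11 with 5 to 19 and -0.01 with at least 20, with no steady direction.

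Stem cell genes stood slightly lower. All 12 measured genes of the list were below 0 in chelator over control members, whereas 46.0% of all 9497 genes were above 0. The median was -0.15, at -0.05 in Xist cells and -0.31 in Y cells, and 1 of the 12, Procr, was past the small-fold limit lower. By Dntt level, the ratio of the sums was -0.02 (-0.08 to 0.05) with 1 Dntt UMI. It was -0.22 with 2 to 4, -0.15 with 5 to 19 and -0.28 with at least 20. Granulocyte-monocyte genes were below 0 in 10 of 11 cases with a median of -0.16, which was -0.33 in Xist cells but 0.04 in Y cells. Immediate-early genes were above 0 in 12 of 16 cases with a median of 0.15, which was -0.22 in Xist cells and 0.35 in Y cells. Type I interferon response genes were above 0 in 13 of 17 cases with a median of 0.06, which was 0.48 in Xist cells and -0.08 in Y cells. Fos was among the immediate-early genes, at 0.23 over all members, -0.49 in Xist cells and 0.67 in Y cells. In the Dntt-negative cells the medians were -0.02 for stem cell and 0.13 for granulocyte-monocyte genes. They were 0.21 for immediate-early and 0.09 for type I interferon response genes there.

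The highest single genes between the pools were Mid1 and Nr4a1. Mid1, an X-linked ubiquitin ligase of microtubules, was at 43.0 CPM in chelator and 19.6 CPM in control members, a log2 ratio of 1.14 (0.92 to 1.35), and had a UMI in 49.3% of chelator and 25.7% of control members, or 18.1% of chelator and 8.83% of control members after thinning. It was 0.59 (0.19 to 0.99) in Xist cells, 1.34 (1.04 to 1.65) in Y cells and 1.22 in the Dntt-negative cells. Nr4a1, an immediate-early nuclear receptor, was at 30.6 CPM in chelator and 15.9 CPM in control members, a log2 ratio of 0.95 (0.70 to 1.19), with 0.51 in Xist cells and 1.11 in Y cells. It was at 1.06 in the Dntt-negative cells. Hist1h3g, a replication histone, followed at 0.74 (0.49 to 0.98) and stood at -0.20 in the Dntt-negative cells. Rasal1, Sulf2, Pcbd1, Prkar2a, Pxmp2, Acat3, Zbtb18, Kcnh6 and Dynlt1b made up the rest of the highest 12, between 0.51 and 0.63, and within Xist cells Sulf2 was at -0.39, Kcnh6 at -0.12 and Dynlt1b at -0.06.

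Inducible heat shock genes were among the lowest. Hspa1b was at 6.95 CPM in chelator and 35.1 CPM in control members, a log2 ratio of -2.34 (-2.67 to -2.02), with -1.89 in Xist cells and -1.87 in Y cells. Hspa1a was at 6.15 CPM in chelator and 22.8 CPM in control members, a log2 ratio of -1.89 (-2.26 to -1.54), with -1.25 in Xist cells and -1.49 in Y cells. In the Dntt-negative cells these genes were at -2.45 and -2.04. Both are near-identical copies, so counts may be shared between them. Of the heat shock and unfolded protein list 3 of 16 were past the small-fold limit lower.

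A pair of the lowest genes rested on single cells. Hbb-bt, a beta globin gene, had a log2 ratio of -1.95, but 1 control member held 1485 of 1695 control UMIs and 1 chelator member 247 of 455. Without the richest member of each pool the ratio was -0.07 (-0.35 to 0.22). Mcpt8, a basophil protease, had a ratio of -1.61, but 1 control member held 176 of 276 UMIs. Without the richest member of each pool it was -0.25 (-0.68 to 0.18). Globins likewise took the erythroid list, of which 4 of 8 genes were past 1.5-fold lower: 1 control member held 6466 of 6491 control Hbb-bs UMIs. No other gene among the lowest 12 or the highest 12 had more than 18.9% of its UMIs in 1 cell of either pool.

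Of the remaining low genes, several differed less within each sex than in the pooled sums. Slc15a2, a peptide transporter, was at 43.4 CPM in chelator and 67.6 CPM in control members, a log2 ratio of -0.64 (-0.79 to -0.49), with -0.28 in Xist cells and -0.17 in Y cells. Myl10, a myosin light chain, was at -0.79 over all members, -0.33 in Xist cells and 0.20 in Y cells. Cdk5rap1, a mitochondrial tRNA modifying enzyme, was at -0.76 (-1.04 to -0.47) over all members, but 0.88 (0.41 to 1.35) in Xist cells and -1.58 (-1.98 to -1.20) in Y cells. Snx11, Bmpr1a, Slc18a2, Dscam and Wfdc18 had pooled ratios between -0.77 and -0.63 and were below 0 within each sex.

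**Figure D5:**
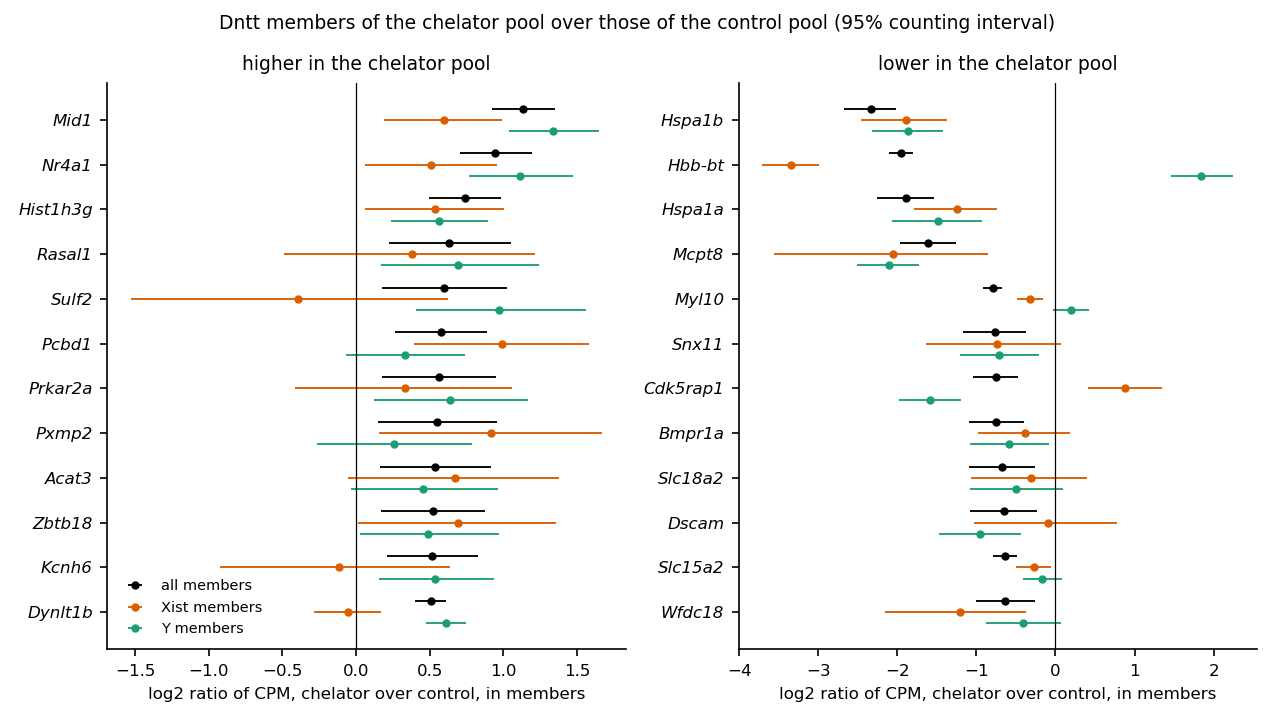
Log2 ratio of CPM (x axis), chelator over control, in Dntt-positive MPP4 gate cells, for the 12 genes highest (left) and the 12 lowest (right), over all members (black), Xist members (orange) and Y members (green); bars are 95% counting intervals. Mid1 and Nr4a1 lie above 0 and Hspa1a and Hspa1b below 0 in each, whereas Hbb-bt and Cdk5rap1 lie on opposite sides of 0 in Xist and Y members.

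Among surface tags the pools differed most in CD62P, the P-selectin of platelets and stem cells, which was lower in chelator members by 0.39 CLR units, by 0.47 in Xist cells and by 0.34 in Y cells. CD93 was lower by 0.29 in chelator members. Selp, the gene of CD62P, had a log2 ratio of 0.10 (-0.25 to 0.45) and Cd93 one of -0.04 (-0.14 to 0.05), so the RNA did not show the difference of the tags. CD371 was higher in chelator members by 0.22, Tim.4 by 0.22 and CD106 by 0.21, of which Tim.4 was at -0.01 in Y cells and 0.57 in Xist cells. The isotype tags ranged from -0.09 to 0.16 in this comparison. Clec12a, the gene of CD371, had a log2 ratio of 0.10 (-0.05 to 0.24). Timd4, the gene of Tim.4, was at 0 CPM in members of both pools. Vcam1, the gene of CD106, was at 0.15 CPM in chelator and 0.08 CPM in control members. In the Dntt-negative cells CD62P and CD93 were lower in the chelator pool by 0.31 and 0.28 as well. CD371 was higher there by 0.24, Tim.4 by 0.10 and CD106 by 0.09.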

How the data were processed

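RNA and surface tags of LSK cells were measured in 1 loading of 2 pools. The authors deposited 1 matrix of whole-number UMI counts for each pool, without normalization. Tools named in the submitters' processing notes are Seurat 4.3.0 and Cell Ranger 7.0.0, with the mm10 build, while per the file headers the matrices came from Cell Ranger 7.0.1. No source used here gives the barcode filter or the hashtag assignment. The chelator matrix held 4037 barcodes and 66573361 gene UMIs, the control matrix 4026 and 63370466. Cells needed 500 detected genes or more and a mitochondrial share below 10%, which removed 39 chelator and 57 control barcodes.

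Counts were summed over cells and scaled to CPM with numpy 2.4.6, scipy 1.17.1 and pandas 2.3.3. Ratios carry exact conditional binomial intervals, shares Clopper-Pearson intervals, and differences of shares intervals built from these. All cover counting error only, and the steps were checked on simulated data. A cell was an Xist cell from 2 Xist UMIs with no Y-linked UMI, and a Y cell from 1 UMI over Ddx3y, Uty, Kdm5d and Eif2s3y with no Xist. Doublets were not removed.

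Genes were named by rule. Against Dntt-negative cells these were the 14 highest and 14 lowest by the smaller of the ratios in the pools, and between pools the 12 highest and 12 lowest whose interval left out 1, with at least 200 UMIs and a UMI in 5% of cells. Mitochondrial, predicted, antigen receptor segment, Xist and Y-linked genes were left out. For tags the 6 highest and 6 lowest, and 3 and 3 between pools, were named, apart from some items not reported here, with a fixed set of 22 genes and up to 6 members of each of 23 lists. The members and lists were chosen with earlier results of these data known. The 19 alternatives tried moved the tag thresholds, the cell filter, the Dntt minimum, thinning, scaling, the gene minimum and the fold, took each sex alone or weighted equally, and left out cells with RNA of both sexes, the members richest in Hbb-bt and Mcpt8, or members with Il7r.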

Additional observations from a re-analysis of the deposited data

Results flagged for a closer look

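A gene was set apart here when its chelator-to-control log2 ratio lay on opposite sides of 0 in Xist and Y members, with both counting intervals leaving out 0. Of 63 genes looked at, 8 did so. The 63 were picked genes, including those highest and lowest between the pools, the fixed set and lymphoid priming genes. The share of all measured genes meeting this rule was not counted, so whether 8 of 63 is unusual cannot be told. The difference between the sexes was not tested, since each sex of each pool is 1 group of cells from an unknown number of mice. Hbb-bt was at -3.34 in Xist and 1.84 in Y members, and single cells held most of its UMIs. Cdk5rap1 was at 0.88 in Xist and -1.58 in Y members. Ly6d was at -1.55 in Xist and 1.75 in Y members, from 19 cells with a UMI in each pool. Irf8, a myeloid and dendritic factor, was at -0.71 in Xist and 0.35 in Y members, and Mpo was at -0.63 and 0.20 in Xist and Y members. Fos was at -0.49 in Xist and 0.67 in Y members. Cnn3 was at -0.35 in Xist and 0.19 in Y members, and Wfdc17 at 0.39 in Xist and -0.24 in Y members.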

How the results depend on the processing

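Over 19 alternatives, of which leaving out members with Il7r and leaving out those richest in Hbb-bt and Mcpt8 were chosen after seeing the data, the share of the gate with Dntt, chelator minus control, turned to -2.49 points in Xist cells alone and was 9.93 in Y cells alone. The share of all cells gave -6.86 points in Xist cells and 1.73 in Y cells. Against 10 genes higher and 32 lower in chelator members, Y cells alone gave 17 higher, a CD135 threshold 0.25 higher gave 19 lower, and members without Il7r gave 16 lower. A minimum of 50 UMIs per gene gave 91 higher and 143 lower, one of 1000 UMIs 2 and 6, and a limit of 0.32 (log2) 112 and 184. Against 186 genes higher and 403 lower in Dntt-positive cells, Xist cells alone gave 83 and 154, 50 UMIs 317 and 792, 1000 UMIs 87 and 108, and 0.32 (log2) 499 and 878. The lymphoid median, 0.57 in the chelator and 0.69 in the control pool, was 0.30 and 0.45 in chelator and control Xist cells, 0.45 and 0.52 without Il7r members, and 0.42 and 0.53 at 1000 UMIs. The minima and folds act through how many genes they admit. For the others the cause was not tested.

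In Xist cells alone the sign turned for Sulf2 (-0.39), Kcnh6 (-0.12), Dynlt1b (-0.055), Cdk5rap1 (0.88) and the immediate-early median (-0.22). In Y cells alone it turned for Hbb-bt (1.84), Myl10 (0.20), the granulocyte-monocyte median (0.039) and the Tim.4 tag (-0.00598). Hbb-bt was also at 1.03 without Il7r members. Of 1880 values recomputed, 1589 for single genes, tags and lists and 115 for the main counts, medians and shares stayed within their limits. No paired analysis was possible because each condition is 1 pool with no replicate. Genes under 200 UMIs over the members, Rag1, Pax5 and Ebf1 among them, are limited by depth.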
